A study of Mus musculus with 12 samples.

Results

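The 10 S100 genes described here are S100a1, S100a4, S100a6, S100a8, S100a9, S100a10, S100a11, S100a13, S100a14 and S100a16, chosen by name from 32498 named genes in tongue tissue of C57BL/6 mice. All mice, bought at an age of 5 weeks, drank water with 100 µg/mL of the carcinogen 4-nitroquinoline 1-oxide (4NQO) over 16 weeks. From week 4, 1 group was gavaged with gallic acid (GA), a plant phenol, at 100 mg/kg 5 times per week, and the other with vehicle. Each group had 6 bulk RNA-seq libraries, labelled as tumor and tumor-associated tissue. How much lesion and how much surrounding tongue each library held is not given in the sources used here. S100a8 and S100a9 were set beside the other 8 genes in GA and vehicle, and their levels were compared with Csf3r, a gene of neutrophils, and with keratins of stressed epithelium.

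S100 proteins are small calcium-binding proteins that mostly work as dimers and change shape when calcium binds to their EF-hand loops. S100A8 and S100A9 pair into calprotectin, which is stored in neutrophils and is also made by keratinocytes of wounded or inflamed skin and by oral epithelium; once released, it withholds metal ions from microbes and can signal through the receptor TLR4. The other genes are better known for roles inside cells, such as membrane organisation with annexins (S100A6, S100A10, S100A11), calcium handling in muscle (S100A1), and the barrier epithelium in which S100A14 and S100A16 are found.

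All 10 genes lie on mouse chromosome 3 (mm10). S100a8 (90668978-90670035, plus strand) and S100a9 (90692632-90695721, minus strand) are separated by 22596 bases. Promoter windows from RefSeq (GRCm38.p6) matched 8 of the 10 genes, with no entry matched for S100a10 and S100a14. Upstream sequence is shown for the genes whose levels moved together most closely (S100a8 and S100a9) and for S100a11, the highest of the genes outside that pair. Only bases outside annotated exons are printed, 5′ to 3′ on the gene's own strand. Capitals mark matches, on either strand, to letters read by factors of neutrophils and of epithelium: C/EBP (TTNNGNAA), PU.1 (GAGGAA) and AP-1 (TGANTCA).
S100a8, chr3:90668821-90668977, plus strand: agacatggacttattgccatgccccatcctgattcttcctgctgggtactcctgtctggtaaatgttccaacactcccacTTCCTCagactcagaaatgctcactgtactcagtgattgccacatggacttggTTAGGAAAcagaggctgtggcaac
S100a9, chr3:90695722-90695971, minus strand: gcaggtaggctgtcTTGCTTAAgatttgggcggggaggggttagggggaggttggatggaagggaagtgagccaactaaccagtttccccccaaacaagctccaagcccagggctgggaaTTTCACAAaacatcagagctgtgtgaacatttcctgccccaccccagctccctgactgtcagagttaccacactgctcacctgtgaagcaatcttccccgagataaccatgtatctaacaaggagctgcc
S100a11, chr3:93520246-93520487, plus strand: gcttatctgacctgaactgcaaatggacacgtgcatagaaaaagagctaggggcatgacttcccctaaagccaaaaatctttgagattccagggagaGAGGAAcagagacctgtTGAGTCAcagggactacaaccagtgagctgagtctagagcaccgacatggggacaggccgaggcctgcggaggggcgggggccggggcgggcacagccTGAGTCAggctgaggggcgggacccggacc
In the 250 bases before the start, the C/EBP letters were found in S100a8 and S100a9 and in no other of the 8 genes, and 36.8% of 32817 windows of the same length in the table held them. S100a16 had windows before the start sites 90537254 and 90541146. Its PU.1 match lies before the former, and its AP-1 and GC box matches before the latter. PU.1 letters were found in S100a8, S100a11 and S100a16, against 23.3% of windows. The AP-1 letters occurred at 2 places before S100a11 and at 1 before S100a16, against 6.75% of windows. The TATA box letters (TATAAA), not marked, were found before S100a4 and S100a8 (12.4% of windows), CCAAT before S100a6 (33.8%) and the GC box letters (GGGCGG) before S100a9, S100a11 and S100a16 (32.7%). A match is a description of the letters and not evidence of binding. S100a1 (90511034-90514392, minus strand) and S100a13 (90514435-90524581, plus strand) start back to back, and the whole sequence between their gene models is shown because their levels are compared below.
S100a1 to S100a13, chr3:90514393-90514434, plus strand: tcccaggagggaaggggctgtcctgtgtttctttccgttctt

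Libraries held 18040168 to 21770405 recovered reads in the vehicle group (median 21129634) and 21237191 to 25192495 in the GA group (median 23684415). Keratins and muscle genes bore out tongue as the tissue, and the share of tumor in it was not measured. Krt13 of the oral mucosa lay at 5539 FPKM or above, and Ckm of muscle at 80.1 FPKM or above, in all 12 libraries. Lipf, a lipase of tongue glands, was at 8228 FPKM or above in vehicle 3, vehicle 5 and GA 2, and at 0.495 FPKM or below in the others. Y-linked reads were present in 4 vehicle libraries and 1 GA library, so the groups differed in the mix of sexes. In bulk tissue, fewer cells of a type and less RNA per cell cannot be told apart.

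Levels below are FPKM, read counts adjusted for exon length and library depth, scaled between libraries by a trimmed mean of log ratios. S100a9 had the highest mean level over the 12 libraries (912 FPKM), followed by S100a11 (646 FPKM), S100a8 (560 FPKM), S100a14 (314 FPKM), S100a16 (300 FPKM), S100a6 (123 FPKM), S100a1 (87.5 FPKM), S100a10 (72.4 FPKM), S100a13 (12.3 FPKM) and S100a4 (1.31 FPKM). S100a9 stood above 99.7% of the 16852 tested genes in mean level, and S100a4 above 31.8%. Neighbours in this order were separated beyond their spread at 3 steps only, S100a16 over S100a6, S100a10 over S100a13 and S100a13 over S100a4, where all 12 libraries had the same order (exact sign-flip test, two-sided p = 0.000488 for each). S100a11 exceeded S100a8 in 8 of 12 libraries (p = 0.141, exact sign-flip test), and S100a8 exceeded S100a14 in 9 of 12 (p = 0.0518, exact sign-flip test).

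**Figure D1:**
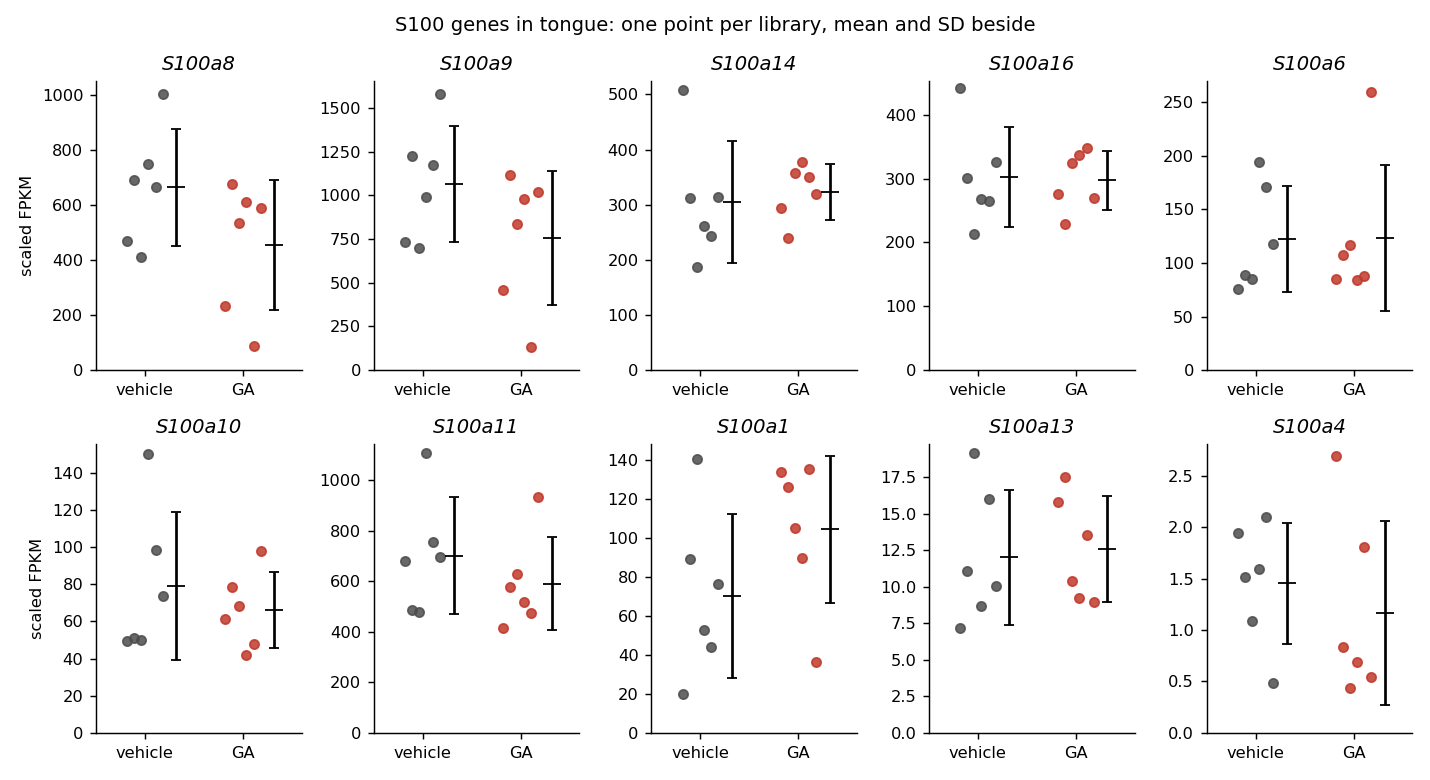
Scaled FPKM (vertical axes, linear from 0) of the 10 S100 genes, with 1 point per library in the vehicle and GA groups (6 libraries each) and the mean with SD beside them. The groups overlap for every gene, and GA 5 and GA 1 are the lowest points of S100a8 and S100a9.

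GA against vehicle gave no call for any of the 10 genes. S100a8 was at 411 FPKM in the lowest, 678 FPKM at the median and 1004 FPKM in the highest vehicle library, and at 87.8, 561 and 675 FPKM in the lowest, median and highest GA library. All 6 GA libraries lay below the vehicle median, but 4 of them lay within the vehicle range, and GA 5 (87.8 FPKM) and GA 1 (231 FPKM) lay below it. Mean S100a8 was 665 ± 212 FPKM (SD, n = 6) with vehicle and 455 ± 237 FPKM (SD, n = 6) with GA. The log2 difference, taken on log2(scaled FPKM + 0.1) here and below, was -0.78 (limma SE 0.47, adjusted p = 0.999; exact permutation test over 924 assignments, two-sided p = 0.177). S100a9 was at 699, 1080 and 1581 FPKM in the lowest, median and highest vehicle library and at 130, 908 and 1114 FPKM in the lowest, median and highest GA library. GA 2 alone among the GA libraries lay above the vehicle median. Its log2 difference was -0.73 (limma SE 0.48, adjusted p = 0.999; exact permutation test, p = 0.186).

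With limma, 0 of 10 S100 genes and 0 of 16852 tested genes (0%) were called at an adjusted p below 0.1 with an absolute log2 difference of at least 0.58. At an unadjusted p below 0.05, there were 0 S100 genes against 367 genes (2.18%) among all tested genes, and limma with voom on recovered reads also called 0 genes. Without vehicle 3 the count at an unadjusted p below 0.05 was 805 genes (4.78%) and without GA 6 it was 864 genes (5.13%), with S100a1 among them in both. The groups overlapped for all 10 genes, and 0.0771% of the tested genes had groups that did not overlap. The difference in S100a8 and S100a9 rested on GA 5 and GA 1. Without GA 5 it was -0.36 for S100a8 and -0.28 for S100a9. Without both GA 1 and GA 5, a choice made after the values were seen, it was -0.09 and -0.06. With the stress keratin score as a term in the fit, it was -0.26 for S100a8 and -0.23 for S100a9, and with the neutrophil score as a term -0.68 and -0.63.

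**Figure D2:**
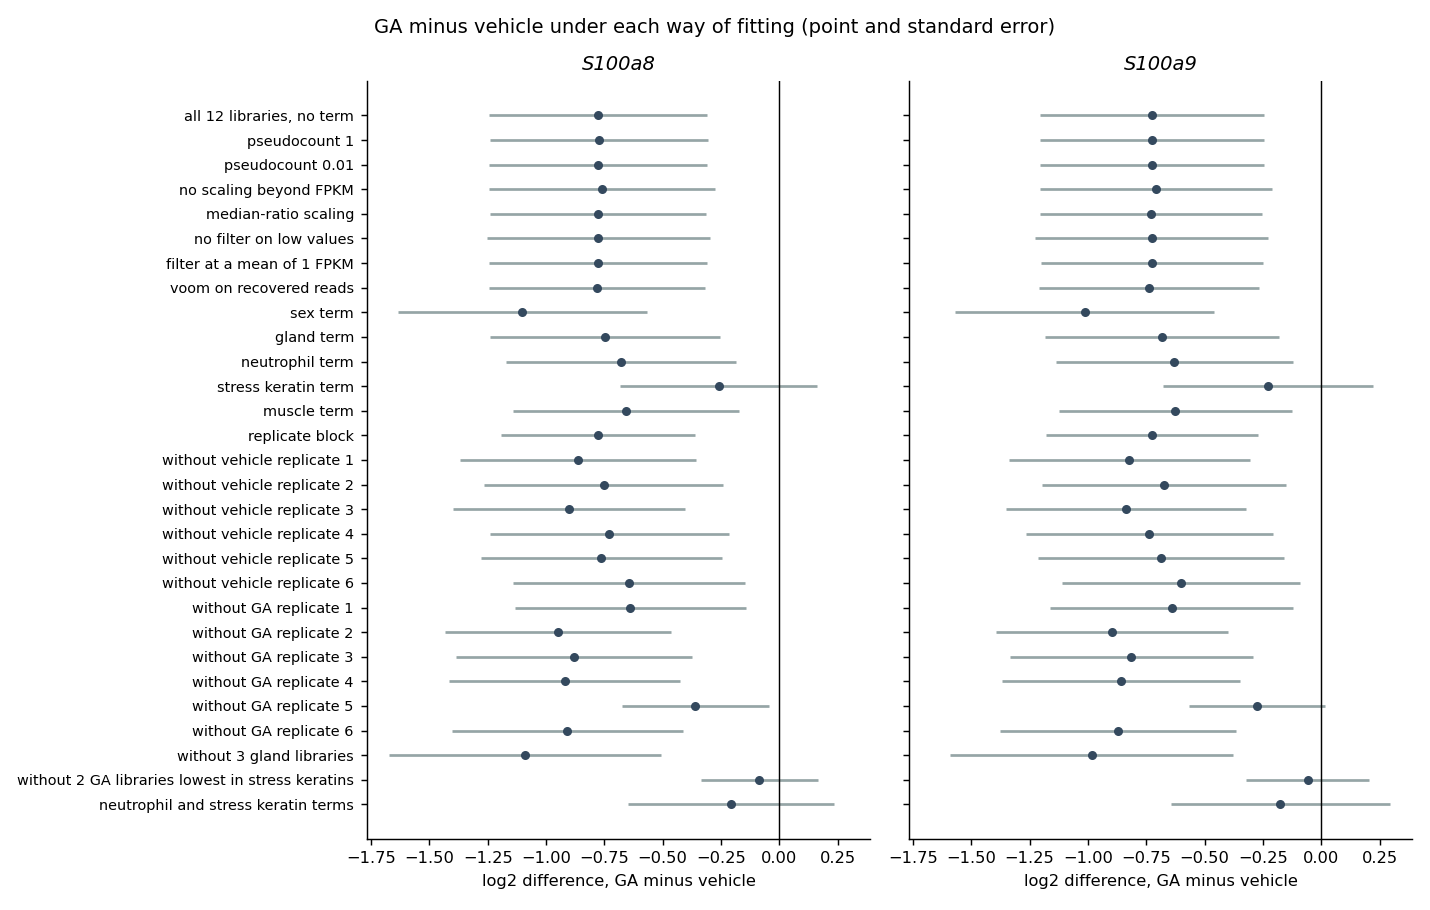
Log2 difference, GA minus vehicle (horizontal axes, points), with its limma standard error (lines) for S100a8 and S100a9 under each way of fitting (rows), the vertical line marking 0. S100a8 lies at -0.78 with all 12 libraries, at -0.36 without GA 5, at -0.26 with a stress keratin term and at -1.10 with a sex term.

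The other 8 genes had smaller or more scattered differences. Mean levels were 70.4 ± 42.0 FPKM (SD, n = 6) with vehicle and 104 ± 37.8 FPKM (SD, n = 6) with GA for S100a1, a log2 difference of 0.69 (limma SE 0.44, adjusted p = 0.999; exact permutation p = 0.197). S100a4 had a log2 difference of -0.44 (exact permutation p = 0.361). The remaining 6 genes, S100a6, S100a10, S100a11, S100a13, S100a14 and S100a16, lay between -0.24 and 0.14, with exact permutation p from 0.351 to 0.974. Counted over the 10 genes, 3 had a higher and 7 a lower mean log2 level with GA, with a median difference of -0.10 beside -0.01 over all tested genes. The summed level of the 10 genes was 3324 ± 661 FPKM (SD, n = 6) with vehicle and 2730 ± 731 FPKM (SD, n = 6) with GA, a difference within the spread between libraries.

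No relation of S100a8 or S100a9 to Csf3r, the receptor of the growth factor G-CSF and a defining gene of neutrophils, was detectable. Csf3r ranged from 0.0305 FPKM (2 reads) in vehicle 1 to 16.3 FPKM (1287 reads) in vehicle 5, while S100a8 ranged 11.4-fold. Vehicle 1 held 5765 reads of S100a8 beside 49 reads over all 10 genes of the neutrophil list, 5 of which had 0 reads. Vehicle 6, the highest library for S100a8 with 14728 reads, had 74 reads on the neutrophil list and 5 of its genes at 0. Vehicle 5, with 3440 neutrophil list reads, had 9884 reads of S100a8. S100a8 was thus high both in a library low in neutrophil reads (vehicle 6) and in one high in them (vehicle 4, with 11768 reads of S100a8 and 1633 of the list). Among the 11 libraries with more than 3 reads of Csf3r, the number of S100a8 reads per Csf3r read ran from 7.68 in vehicle 5 to 1372 in GA 4.

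Across the 12 libraries, Pearson's r with Csf3r was 0.22 for S100a8 (permutation p = 0.510, adjusted p = 0.62 over 80 relations; Spearman's rho 0.18, p = 0.572) and 0.21 for S100a9 (permutation p = 0.515, adjusted p = 0.62; rho 0.11, p = 0.732). Without vehicle 4 and vehicle 5, the libraries farthest from the median of Csf3r, r was 0.01 and 0.06. With the mean log2 level of 9 neutrophil genes (the neutrophil score), r was 0.30 for S100a8 and 0.29 for S100a9 (permutation p = 0.324 and 0.337; rho 0.23 and 0.20). Leaving out vehicle 4, vehicle 5 and GA 2, which had the highest neutrophil scores, gave r = -0.05 for S100a8 and 0.04 for S100a9. Within the vehicle group, r of S100a8 with the neutrophil score was 0.14 (exact permutation p = 0.822), and within the GA group it was 0.36 (exact permutation p = 0.422).

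**Figure D3:**
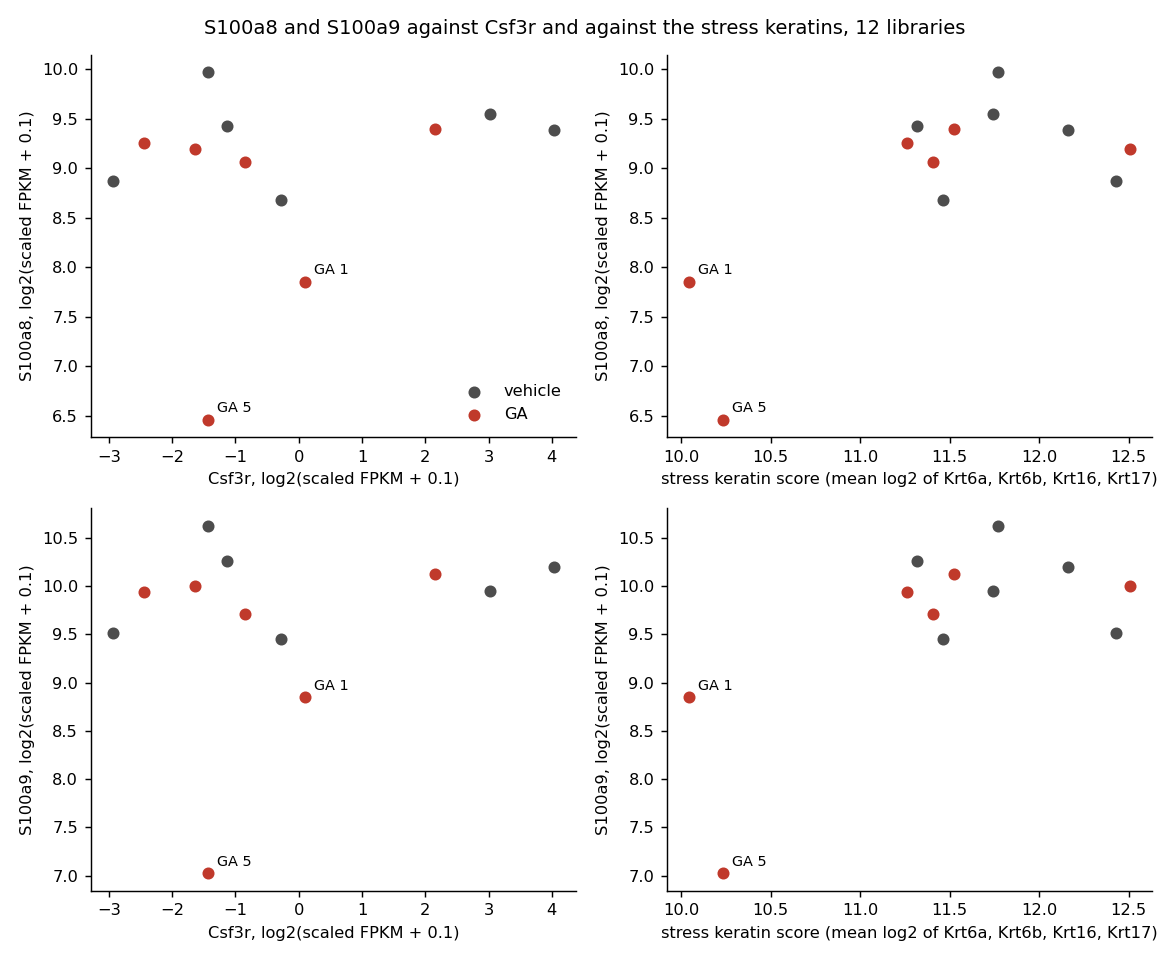
Log2 level of S100a8 (top) and S100a9 (bottom) on the vertical axes against the log2 level of Csf3r (left) and the stress keratin score (right), all as log2(scaled FPKM + 0.1), with 1 point per library, vehicle in grey and GA in red. With Csf3r r is 0.22 and 0.21, and on the right GA 1 and GA 5 stand apart from the other 10 libraries.

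The stress keratins Krt6a, Krt6b, Krt16 and Krt17, which keratinocytes make on wounding and in hyperplasia, gave another picture. The mean log2 of these 4 genes (the stress keratin score) had r = 0.70 with S100a8 (permutation p = 0.0126, adjusted p = 0.06315; rho 0.39, p = 0.211) and r = 0.67 with S100a9 (permutation p = 0.0169, adjusted p = 0.0713; rho 0.48, p = 0.116). GA 1 and GA 5 were lowest in the stress keratins, with 4623 and 5252 FPKM summed over the 4 genes against 10715 FPKM or more in the others, and also lowest in S100a8. Among the other 10 libraries r was -0.08 for S100a8 and -0.05 for S100a9 (permutation p = 0.825 and 0.880), so the relation rested on those 2 libraries. Within the vehicle group r was -0.13 and -0.19 (exact permutation p = 0.794 and 0.686), and within the GA group, which holds both low libraries, 0.78 and 0.74 (exact permutation p = 0.0972 and 0.115). Vehicle 1 had the highest summed stress keratins (25164 FPKM) with 469 FPKM of S100a8. With the mean log2 of Krt5, Krt14 and Krt15 (the basal keratin score), r was 0.40 for S100a8 and 0.32 for S100a9 (permutation p = 0.191 and 0.317). Within the vehicle group it was 0.83 and 0.69 (exact permutation p = 0.0292 and 0.122), and within the GA group 0.11 and 0.05. Without vehicle 3 and GA 2 it was 0.71 and 0.60 (permutation p = 0.0424 and 0.103).

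Among 12156 genes ordered by r with S100a8, Krt14 stood at place 74, Krt16 at 97, Krt17 at 108, Krt6b at 126, Krt6a at 467, Csf3r at 4064 and Krt13 at 8899. For S100a9 the places were 90 for Krt14, 110 for Krt16, 469 for Krt6a, 3910 for Csf3r and 9122 for Krt13. The gene most like both was Gml (r = 0.91 with S100a8 and 0.90 with S100a9, mean level 1.08 FPKM), followed for S100a8 by Med10, Rilpl2, Gm24494 and Srsf4 and for S100a9 by Gm24494, Trgc1, Rilpl2 and Tmprss11g, a protease of squamous epithelium. None of these 7 genes belongs to the neutrophil list or the keratin lists. The low values in GA 1 and GA 5 enter each of these correlations.

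Both scores were then placed in 1 limma fit with the group as a term. Per unit of log2 stress keratin score, S100a8 was 0.77 log2 higher (SE 0.30, adjusted p = 0.150) and S100a9 0.75 log2 higher (SE 0.32, adjusted p = 0.183). Per unit of log2 neutrophil score, the coefficients were 0.07 for S100a8 (SE 0.12, adjusted p = 0.842) and 0.07 for S100a9 (SE 0.13, adjusted p = 0.851). Of 16839 genes, 10.6% were called at an adjusted p below 0.1 for the stress keratin term and 3.68% for the neutrophil term. These shares moved with single libraries. For the stress keratin term the share was 2.67% without vehicle 2, 4.51% without vehicle 5, 6.26% without vehicle 6, 0.344% without GA 1, 5.45% without GA 3, 6.55% without GA 4, 2.57% without GA 5 and 0% without GA 6. It was 8.57% without vehicle 1, and it rose to 12.6% without vehicle 3, 15.6% without vehicle 4 and 14.1% without GA 2. For the neutrophil term it was 1.58% without vehicle 1, 2.32% without vehicle 2, 6.80% without vehicle 3, 5.53% without vehicle 4, 0.683% without vehicle 5, 1.40% without GA 2 and 2.43% without GA 3. Positive coefficients were called for 4.63% and 3.35% of genes, respectively. Of the 10 S100 genes, 1 was called for the stress keratin term (S100a1, negative, where 6% of all genes were called) and 0 for the neutrophil term. When 1 library was left out, 0 to 3 S100 genes were called for the stress keratin term and 0 to 1 for the neutrophil term. The 3 genes called for the stress keratin term were S100a1, S100a4 and S100a6 without vehicle 1, S100a1, S100a11 and S100a13 without vehicle 4, and S100a1, S100a6 and S100a11 without GA 2. In those fits 8.57%, 15.6% and 14.1% of all genes were called for that term, respectively. For the neutrophil term, S100a14 was called without vehicle 3 (limma, adjusted p = 0.0698) and S100a13 without vehicle 4 (limma, adjusted p = 0.0861). At an unadjusted p below 0.05 there were 6 of 10 S100 genes for the stress keratin term, against 24.3% of all genes, and 2 of 10 (S100a10 and S100a14) for the neutrophil term, against 14.7%. Without GA 5 the stress keratin coefficient was 0.41 for S100a8 and 0.33 for S100a9. Neither term was called for S100a8 or S100a9 with all 12 libraries or with any 1 library left out.

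S100a8 and S100a9, whose products form the calprotectin complex, varied together closely. Their r was 0.987 (permutation, adjusted p = 0.000225 over 45 pairs of S100 genes; rho 0.909, adjusted p = 0.00315), and without GA 1 and GA 5 it was 0.939. The level of S100a9 was 1.32 to 1.99 times that of S100a8 in the 12 libraries, lowest in vehicle 4 and highest in GA 1. The mean log2 ratio was 0.68 ± 0.16 (SD, n = 6) with vehicle and 0.73 ± 0.15 (SD, n = 6) with GA, a difference of 0.05 (exact permutation p = 0.604). In GA 5, where S100a8 was at 87.8 FPKM, the ratio was 1.48 and so within the range of the vehicle libraries. Together they made up 61.5% of the summed level of the 10 genes in vehicle 6 and 13% in GA 5.

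**Figure D4:**
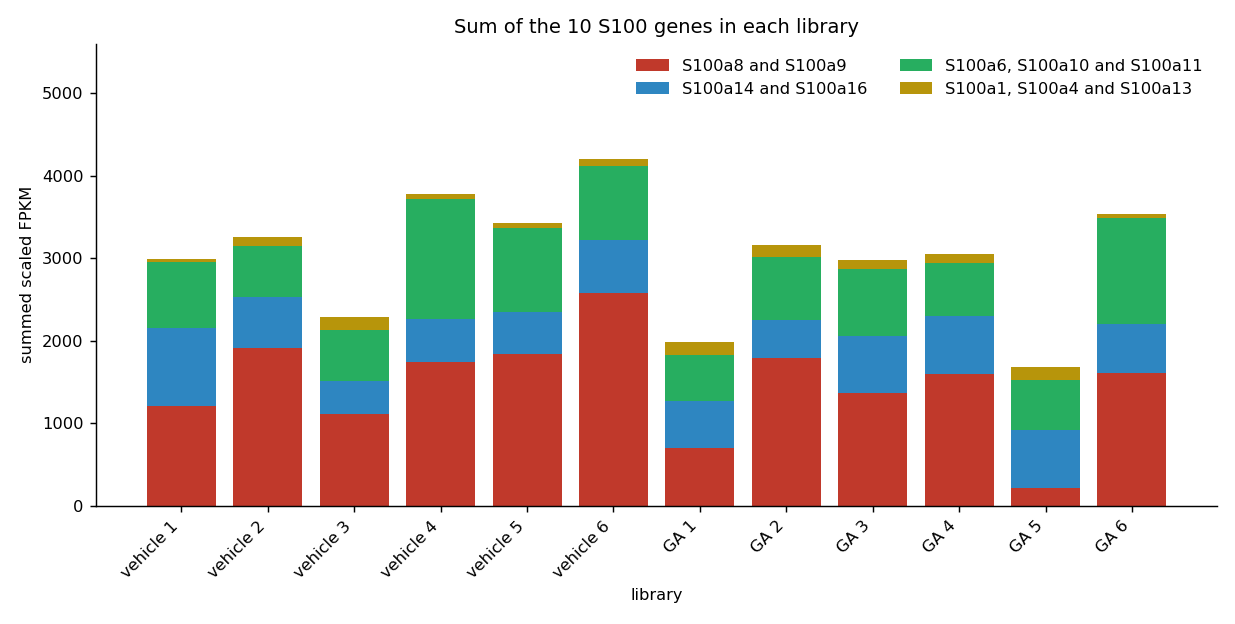
Sum of the 10 S100 genes in scaled FPKM (vertical axis, stacked bars from 0) in each of the 12 libraries, split into 4 groups of genes by colour. The S100a8 and S100a9 segment ranges from 13% of the sum in GA 5 to 61.5% in vehicle 6.

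S100a14 and S100a16, both found mainly in epithelium, formed the other closely matched pair. S100a14 (90526856-90528837) was at 187, 287 and 508 FPKM in the lowest, median and highest vehicle library and at 239, 335 and 377 FPKM in the lowest, median and highest GA library. S100a16 (90537254-90543151) was at 214, 285 and 441 FPKM with vehicle and at 228, 301 and 348 FPKM with GA, in the same order of lowest, median and highest. Vehicle 1 was highest and vehicle 3 lowest for both. Their r was 0.951 (permutation, adjusted p = 0.000225; rho 0.916), and 0.874 without vehicle 1 and vehicle 3. Both went with Krt4 and Krt13, the keratins of the upper layers of oral mucosa. With the mean log2 of those 2 genes, r was 0.83 for S100a16 (permutation p = 0.00082, adjusted p = 0.0328; rho 0.87, adjusted p = 0.0114; 0.82 without vehicle 5 and GA 2) and 0.73 for S100a14 (permutation p = 0.0063, adjusted p = 0.0508; rho 0.66, adjusted p = 0.105; 0.69 without vehicle 5 and GA 2). Without the 3 libraries with gland tissue, r for S100a14 was 0.58 (permutation p = 0.104). With the stress keratin score, r was 0.08 for S100a14 and 0.04 for S100a16. Both were lower where neutrophil genes were higher by rank (rho -0.85, permutation, adjusted p = 0.0133 for S100a14; rho -0.90, adjusted p = 0.008 for S100a16), with Pearson's r of -0.60 and -0.56 (adjusted p = 0.144 and 0.176) and, without vehicle 4 and vehicle 5, -0.62 and -0.71. Among the 5 genes most like each were Rab25, a trafficking protein of epithelium (r = 0.96 with S100a14 and 0.97 with S100a16, where it stood first), and the barrier genes Lgals7 (r = 0.96 with S100a14) and Dmkn (r = 0.95 with S100a16).

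S100a6, S100a10 and S100a11, whose products bind annexins, moved with each other. S100a6 (90612882-90624181) ranged from 75.5 to 194 FPKM with vehicle and from 84.1 to 259 FPKM with GA, S100a10 (93555080-93564643) from 49.5 to 150 and from 42.1 to 97.7 FPKM, and S100a11 (93520488-93526287) from 480 to 1109 and from 417 to 932 FPKM, respectively. Vehicle 4 and GA 6 were the highest library of their group for all 3 genes. The r was 0.87 between S100a6 and S100a10 (permutation, adjusted p = 0.0051; rho 0.87, adjusted p = 0.0078), 0.84 between S100a6 and S100a11 (adjusted p = 0.0081; rho 0.72, adjusted p = 0.0728) and 0.83 between S100a10 and S100a11 (adjusted p = 0.0081; rho 0.72, adjusted p = 0.0728). Without the 2 libraries farthest from the median, r was 0.89, 0.66 and 0.73. S100a10 and S100a11 are 28792 bases apart, whereas S100a6 lies 2930898 bases from S100a10. Levels of S100a11 may be affected by reads that also fit the processed pseudogene S100a11-ps, which was not analysed here. Only reads with a unique position were counted.

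Annexins were among the 5 genes most like S100a6 and S100a10, but not among the 5 most like S100a11. Anxa2, the annexin that forms a tetramer with S100A10, had r = 0.95 with S100a10, in second place after Inhba (r = 0.96), and Lama3, a laminin gene of the epithelial basement membrane, had r = 0.95. Anxa1 had r = 0.96 with S100a6, where Cotl1, which binds actin, stood first (r = 0.98). Cd44, a receptor for hyaluronan, was most like S100a11 (r = 0.97). S100a11 had r = 0.74 with the stress keratin score (permutation p = 0.00615, adjusted p = 0.0508; rho 0.85, adjusted p = 0.0133) and 0.64 without GA 1 and GA 5 (permutation p = 0.0489). Unlike for S100a8, that relation was thus not lost without GA 1 and GA 5, though the difference between the correlations was not tested. Within the vehicle group this r of S100a11 was 0.44 (exact permutation p = 0.407), and within the GA group 0.94 (exact permutation p = 0.00278). S100a11 was also lower where muscle genes were higher (r = -0.74, permutation, adjusted p = 0.0508, with rho -0.78, adjusted p = 0.0342). Without vehicle 1 and GA 6 that r was -0.82. Whether the keratin and muscle relations are separate was not tested. For S100a6 and S100a10 the r with the stress keratin score was 0.53 and 0.42 (permutation p = 0.0711 and 0.177). S100a10 had r = 0.68 with the neutrophil score (permutation p = 0.0148, adjusted p = 0.0659; rho 0.63, adjusted p = 0.135), which was 0.33 without vehicle 4 and vehicle 5.

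S100a1, which regulates calcium release and uptake in striated muscle, followed the muscle content of the libraries. It was at 20.1, 64.5 and 140 FPKM in the lowest, median and highest vehicle library, and at 36.3, 116 and 135 FPKM in the lowest, median and highest GA library. Vehicle 1 and GA 6 were the lowest of their groups, and vehicle 3 was the highest of all. With the mean log2 of 8 muscle genes (Ckm, Acta1, Myh4, Atp2a1, Ryr1, Tnnt3, Casq1 and Mylpf), r was 0.977 (permutation, adjusted p = 0.0008; rho 0.958, adjusted p = 0.004), 0.951 without vehicle 1 and GA 6, 0.978 within the vehicle group and 0.995 within the GA group. The most similar genes were Tmem182, Cox6a2, Pde4dip, Got1 and Fndc5 (r from 0.986 to 0.992), of which Cox6a2 is the muscle form of a respiratory chain subunit. The muscle list itself had 8 of 8 genes with a higher mean log2 level with GA (median 0.51) and 0 of them passed the test. With the muscle score as a term, the difference of S100a1 between GA and vehicle was 0.25 (limma, unadjusted p = 0.027) in place of 0.69, and with the stress keratin score as a term it was 0.096 (unadjusted p = 0.783). Without vehicle 1 the difference was 0.38, without vehicle 3 0.94 (limma, unadjusted p = 0.0484, adjusted p = 0.830) and without GA 6 0.97 (limma, unadjusted p = 0.0342, adjusted p = 0.798).

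S100a1 was also lower where stress keratins were higher (r = -0.80, permutation p = 0.00187, adjusted p = 0.039; rho -0.79, adjusted p = 0.0313; -0.88 without GA 1 and GA 5). Its stress keratin coefficient in the joint fit was -0.93 (SE 0.24, adjusted p = 0.0681). That call was lost without vehicle 2, vehicle 5, GA 1, GA 5 or GA 6 (adjusted p = 0.118, 0.109, 0.128, 0.112 and 0.375, respectively), with a sex term (0.120), and with the basal or mucosal keratin score in place of the stress keratin score (0.279 and 0.971). Vehicle 1 and GA 6, lowest in the muscle score (6.51 and 7.02), had the highest summed stress keratins (25164 and 23522 FPKM). Whether the keratin and muscle relations of S100a1 are separate was not tested.

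The gene model of S100a13, which takes part in the release of FGF1 and IL-1α from cells, lies 42 bases from that of S100a1, and S100a13 was at 7.17, 10.5 and 19.2 FPKM in the lowest, median and highest vehicle library and at 8.92, 12 and 17.5 FPKM in the same order with GA, from 91 to 284 reads. The r with S100a1 was 0.68 (permutation, adjusted p = 0.0733; rho 0.71, adjusted p = 0.0728) and 0.43 without vehicle 1 and GA 6. S100a13 had r = 0.81 with the monocyte and macrophage score (permutation p = 0.00195, adjusted p = 0.039; rho 0.71, adjusted p = 0.0693; 0.77 without vehicle 5 and GA 1) and r = 0.74 with both the fibroblast and the skeletal muscle score (adjusted p = 0.0508 for each; rho 0.69 and 0.79), and it was negatively related to S100a14 (r = -0.77, permutation, adjusted p = 0.0175; rho -0.71, adjusted p = 0.0735; -0.60 without vehicle 3 and GA 2). S100a14 had r of the other sign with the monocyte and macrophage score and the fibroblast score, -0.72 and -0.69 (adjusted p = 0.0508 and 0.06315). The libraries with gland tissue, vehicle 3, GA 2 and vehicle 5, were the highest for S100a13 (19.2, 17.5 and 16.0 FPKM). They were also the lowest for S100a14 (187, 239 and 243 FPKM). The relation between S100a13 and S100a14 was not computed without all of these libraries.

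S100a4, known from fibroblasts and migrating cells, was scarce. It had 6 to 33 reads per library, at 0.489 to 2.10 FPKM with vehicle and 0.435 to 2.69 FPKM with GA. In the annotation, 51.7% of its exon bases overlap Gm42674 on the same strand, and how the authors counted reads over both genes is not given in the sources used here, so its level is uncertain. Its difference between GA and vehicle ran from -0.73 to -0.25 when 1 library was left out, nearest 0 without GA 3 and farthest without GA 1. Without both GA 1 and GA 5 it was -1.01 (limma, unadjusted p = 0.0186, adjusted p = 1), with the stress keratin term -0.85 and with a sex term 0.033. Its r with the fibroblast score was 0.56 (permutation p = 0.0594, adjusted p = 0.176; rho 0.55, p = 0.0705). The gene most like it was Pdxdc1 (r = 0.92).

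**Figure D5:**
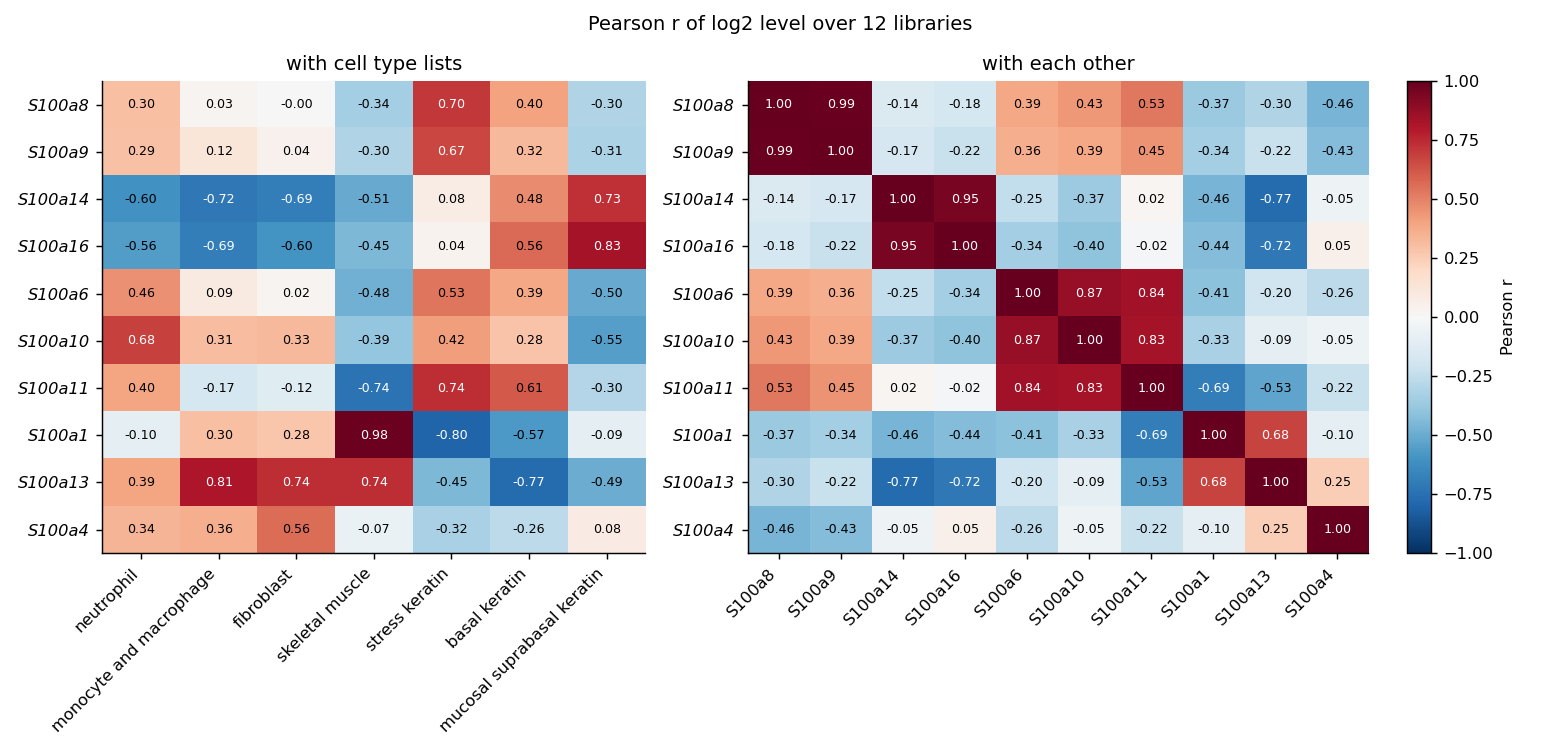
Pearson's r over 12 libraries of the log2 level of each S100 gene (rows) with 7 cell type scores (left, columns) and with each other (right, columns), on a colour scale from -1 (blue) to 1 (red) with r printed in each cell. S100a1 stands out with skeletal muscle (0.98), and S100a8 with S100a9 (0.99) and S100a14 with S100a16 (0.95) form blocks.

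Of 7 further S100 genes, S100a7a, related to human psoriasin and made by squamous epithelium, was the highest, at 25.7 to 108 FPKM with vehicle and 36.1 to 64.2 FPKM with GA (log2 difference 0.06, limma SE 0.27). S100a3 and S100b had means of 0.722 and 0.793 FPKM. S100g, an intestinal calcium carrier, was at 71.9 FPKM (772 reads) in vehicle 4 and at 3.33 FPKM or below in the other 11 libraries. S100a7l2 and S100z were listed at 0 in every library, and S100a5 at 0.496 FPKM or below. Of the 4 that passed the filter on low values, 0 were called.

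Genes that act with the S100 proteins were read from lists chosen by function. Of 7 genes for receptors of S100A8 and S100A9 and their co-factors, 5 had a lower and 2 a higher mean log2 level with GA (median -0.14) and 0 passed the test. Tlr4, the toll-like receptor for calprotectin, was at 3.16 ± 0.60 FPKM (SD, n = 6) with vehicle and 2.91 ± 0.70 FPKM (SD, n = 6) with GA, and Ager, which encodes the receptor RAGE, was at 0.342 FPKM or below throughout. Of 11 tested binding partners, 7 were higher and 4 lower (median 0.03). The S100 fused-type genes encode large barrier proteins with an S100 domain and lie in the same epidermal gene cluster. Their 6 of 6 tested genes had a lower mean log2 level with GA (median -0.51), and 0 passed the test. Their summed level was not lower at the median, at 723 FPKM with vehicle and 816 FPKM with GA. The highest library stood at 5287 FPKM with vehicle and 1380 FPKM with GA. Flg, the filaggrin gene, was at 34.4 ± 46.8 FPKM (SD, n = 6) with vehicle and 13.7 ± 8.53 FPKM (SD, n = 6) with GA. Of 11 tested genes of stressed epithelium, 10 had a lower mean log2 level (median -0.23), as had 9 of 9 neutrophil genes (median -0.82) and 4 of 4 stress keratins (median -0.66), and 0 of any of these lists passed the test, beside a median of -0.01 over all tested genes. Median summed levels with vehicle and GA were 3863 and 4212 FPKM for stressed epithelium, 3.55 and 2.04 FPKM for neutrophil genes, and 14299 and 10929 FPKM for stress keratins. The highest neutrophil sum was 78.1 FPKM with vehicle and 21.1 FPKM with GA. Genes of 1 list can vary together, so these counts do not stand for independent changes.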

How the data were processed

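Bulk RNA-seq of tongue was performed in 6 vehicle and 6 GA libraries, grouped by their labels. Per the labels and methods, alignment was to mm10 (HISAT2) and featureCounts took reads with a unique position; the authors then deposited FPKM values for each gene and library. The labels do not state which mouse each library came from, so p-values measure the spread between libraries. The table holds 55463 entries, of which 22965 (41.4%) carry no gene name and were not used. Low FPKM values were converted to reads with GENCODE M21 exon lengths, and 97.8% to 98.4% of them came out whole (tolerance 0.02 reads). Library totals of 18040168 to 25192495 reads limit the precision of low genes.

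Libraries were scaled to each other by a trimmed mean of log ratios without weights. Genes averaging 0.1 FPKM or more were compared on log2(FPKM + 0.1), which understates changes of low genes, with limma 3.58.1 in R 4.3.3 (trend, Benjamini-Hochberg adjustment). A gene was called at an adjusted p below 0.1 and an absolute log2 difference of at least 0.58. The design had no replicate block: nothing in the labels ties libraries of equal number to each other, and their deviations did not correlate above 0.1. Single genes had an exact permutation test. Correlations had 100000 resamples and were adjusted over 80 relations of S100 genes with scores or over 45 gene pairs. A score is the mean log2 level of a list's tested genes. The S100 genes, lists and tests were chosen with earlier results of these data known. Genes are named as members, list genes, or the 5 genes most like a member (mean of at least 1 FPKM). The limma fits were also run on simulated data with independent noise for each gene. That run lacked the tissue differences shared by many genes here, so it cannot vouch for the fits on these libraries. Alternatives were other pseudocounts, scalings, filters and terms, voom on recovered reads, leaving out libraries and a replicate block. Promoter windows came from RefSeq (GRCm38.p6), and motif letters were searched on both strands.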

Additional observations from a re-analysis of the deposited data

Results flagged for a closer look

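Each of 18 measures (the 10 S100 genes, 4 other tested S100 genes, the S100a9 to S100a8 ratio, the sum of the 10 genes, and the neutrophil and stress keratin scores) was checked in each group of 6 libraries for a value set apart from the rest, by the gap to its nearest neighbour as a share of the group's range. In 36 such checks, 3 exceeded Dixon's 95% critical value, and chance gives about 1 in 20 groups. GA 6 was lowest of the GA group in S100a1 (gap 0.689 of the range, 36.3 FPKM). GA 6 was also highest of the GA group in S100a6 (gap 0.708, 259 FPKM). GA 2, which holds gland tissue, was highest of the GA group in the neutrophil score (gap 0.725). GA 5 in S100a8 and S100a9 did not exceed the critical value.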

How the results depend on the processing

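S100a8 and S100a9 kept a negative difference in all alternatives tried and were called in none. With the sex term the differences were -1.10 and -1.01, and without the 3 gland libraries, left out after the data were seen, -1.09 and -0.98. Leaving out 1 library at a time moved S100a8 between -0.95 and -0.36 and S100a9 between -0.90 and -0.28, with the value nearest 0 without GA 5 for both. The count of called genes was 0 in all fits except without vehicle 4, where 1 gene was called (Gm25290, named after its values were seen); so it ran from 0 to 1. For GA against vehicle, no S100 gene was called in any alternative (0 throughout), and 367 genes had an unadjusted p below 0.05, 805 without vehicle 3 and 864 without GA 6. Libraries of equal replicate number did not vary together over all tested genes (same-number correlations from -0.372 to 0.0796). The labels do not say whether such libraries shared a litter or a day. With the replicate block the S100a8 difference was -0.78 (limma, unadjusted p = 0.101), and the within-pair log2 ratio of S100a9 to S100a8 was 0.050.

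Some small differences changed sign. With the stress keratin term, S100a6 was 0.30, S100a10 0.017, S100a11 0.040, S100a13 -0.097 and S100a16 0.0060. With the neutrophil term, S100a6 was 0.13 and S100a10 0.014. With the neutrophil and stress keratin terms together, S100a6 was 0.40, S100a10 0.17 and S100a11 0.089. With the muscle term, S100a6 was 0.13, S100a13 -0.086 and S100a16 0.068. With the sex term S100a4 was 0.033. Without GA 1 and GA 5, S100a6 was 0.17 and S100a13 -0.034, and without the gland libraries S100a6 was 0.031. S100a16 was 0.013 without scaling and 4.97e-05 with voom. Leaving out 1 library, S100a6 ran from -0.26 to 0.13, S100a10 from -0.31 to 0.030, S100a13 from -0.032 to 0.25, S100a16 from -0.098 to 0.11, and the log2 ratio of S100a9 to S100a8 from -0.0072 to 0.083.

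The correlation with the stress keratin score ran from 0.57 to 0.77 for S100a8 and from 0.52 to 0.75 for S100a9 over the libraries left out, and passed an unadjusted p of 0.05 in all but those without GA 1 or GA 5; for S100a9 it was also 0.65 (permutation p = 0.0545) without the 3 libraries highest in neutrophil genes, where the correlation of S100a8 with the neutrophil score was -0.055. The neutrophil correlations ran from 0.21 to 0.42 and from 0.20 to 0.41. In the joint fit, the stress keratin coefficient ran from 0.41 to 0.99 (S100a8) and from 0.33 to 0.93 (S100a9), and the neutrophil coefficient from -0.011 to 0.17 and from -0.013 to 0.14. With the basal keratin score in place of the stress keratin score, the keratin coefficients were 1.08 for S100a8 and 0.82 for S100a9 (limma, adjusted p = 0.479 and 0.624). With the mucosal suprabasal keratin score in place of the stress keratin score, added after the data were seen, the keratin coefficients were -0.61 and -0.65 and the neutrophil coefficients -0.11 and -0.13 (limma, adjusted p from 0.857 to 0.999). In the joint fit without the gland libraries, S100a1, S100a11 and S100a13 were called for the stress keratin term (limma, adjusted p = 0.0537, 0.0493 and 0.0429). In that fit 17.8% of all genes were called for the term, against 10.6% with all 12 libraries. With the sex term added, 1.44% of genes were called for the stress keratin term. The cause of these changes was not tested.

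Depth limits S100a4 (6 to 33 reads) and S100a13 (91 to 284 reads) most.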
